A study of Homo sapiens with 8 samples.

Results

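The genes described here encode core and regulatory proteins of the pre-mRNA splicing machinery: the Sm and other snRNP proteins (symbols beginning SNRP), the SF3A and SF3B subunits of the U2 snRNP, the U2AF proteins, the PRPF proteins, the hnRNP proteins (HNRNP) and the SR proteins (SRSF). They were picked by symbol alone, and 66 of the 12715 genes in the deposited tables carried such a symbol. There were 20 HNRNP genes, 12 PRPF genes, 11 SNRP genes, 11 SRSF genes, 9 SF3A or SF3B genes and 3 U2AF genes. All 66 were listed for BCPAP, and 64 were listed for CAL-62, where PRPF40B and SRSF10 had no entry. Every listed gene of the set passed the minimum mean value of 1 used for testing.

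The 8 RNA-seq libraries were made from poly(A) RNA of CAL-62 and BCPAP cells, 2 established lines of human thyroid carcinoma. The 4 groups were CAL-62 with THZ1, CAL-62 with DMSO, BCPAP with THZ1 and BCPAP with DMSO, each with 2 libraries. THZ1, given at 100 nM for 6 h, is a covalent inhibitor of CDK7, a kinase of the transcription machinery, and DMSO is its vehicle. The labels call both lines anaplastic, although BCPAP is widely known as a line from a papillary carcinoma. The culture media differed, with 20% serum for CAL-62 and 10% for BCPAP, and their part cannot be told apart from that of the line. Each line is a single culture model, and the labels leave it unsaid whether the replicates were grown separately. What the p-values weigh is thus the scatter of these libraries, possibly technical.

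Splicing removes introns in steps. The U1 snRNP marks the 5′ splice site, U2AF binds the end of the intron, and the U2 snRNP with its SF3A and SF3B subunits settles on the branch site. The tri-snRNP of U4, U5 and U6, to which several PRPF proteins belong, then joins. Each of U1, U2, U4 and U5 carries a ring of Sm proteins. SR proteins bind exonic enhancers and commonly favour exon inclusion, whereas many hnRNP proteins bind elsewhere in the transcript and repress it. Transcripts of several SR protein genes carry poison exons through which the proteins adjust their own levels.

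The deposited value of a gene is of the RPKM type, that is, reads per kilobase of gene length divided by a scale for the library. This scale was not the library's sum of reads. In each THZ1 library the total it implied was below the reads in listed genes. Set beside size factors computed within a line by the median of ratios, the scale differed by at most 2.11% in CAL-62 and 2.22% in BCPAP. Whole reads could be recovered from the values, and they came to between 16679565 and 19986746 per library in listed genes. The median gene had 399 to 730 reads. CAL-62 THZ1 replicate 1 had the fewest reads and the lowest median. The thyroid label rested on few defining markers: of 7 follicular genes, PAX8 alone was listed for CAL-62 and PAX8, NKX2-1 and FOXE1 for BCPAP, while TG, TSHR and SLC5A5 were listed for neither. No blood or endothelial marker was listed for either line, and 1 of 4 fibroblast markers was. The PAX8 value was 5.20 and 29.8 in the CAL-62 THZ1 libraries, against 91.1 and 117 in the CAL-62 DMSO libraries. The summed value of the 5 epithelial markers listed for CAL-62 was 2277 and 2915 in the THZ1 libraries, against 1360 and 1691 in the DMSO libraries, and the part of either marker list in the results below was not tested.

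Promoter sequences are shown for 8 of the genes with the larger positive or negative changes in CAL-62, since the data bear on transcripts that moved apart under an inhibitor of transcription. RefSeq promoters matched 59 of the 66 symbols. Each sequence is the 150 bases before the annotated start, 5′ to 3′ on the gene's strand in GRCh38.p14, a later build than the hg19 of the submitters' notes. Capitals mark matches on either strand to 1 of 5 motifs. They were the core of many ETS sites, written CCGGAAG, the CCAAT box, the TATA box in the form TATAAA, the palindromic NRF1 motif by its usual consensus, and the GC box, written GGGCGG. No matches of different motifs overlapped in the windows shown. The first 4 had the largest positive changes among the named genes with a promoter entry, apart from HNRNPA1L2. SNRPD2 lies at chr19:45692317-45692466 (minus strand), SNRPC at chr6:34757355-34757504 (plus), SNRPF at chr12:95858802-95858951 (plus) and SF3B14, which RefSeq names SF3B6, at chr2:24076327-24076476 (minus).
SNRPD2: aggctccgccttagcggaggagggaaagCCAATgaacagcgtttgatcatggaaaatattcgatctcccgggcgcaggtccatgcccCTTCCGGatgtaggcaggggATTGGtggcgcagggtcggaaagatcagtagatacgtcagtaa
SNRPC: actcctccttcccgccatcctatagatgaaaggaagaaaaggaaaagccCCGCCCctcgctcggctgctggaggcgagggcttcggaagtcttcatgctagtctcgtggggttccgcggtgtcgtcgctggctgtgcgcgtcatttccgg
SNRPF: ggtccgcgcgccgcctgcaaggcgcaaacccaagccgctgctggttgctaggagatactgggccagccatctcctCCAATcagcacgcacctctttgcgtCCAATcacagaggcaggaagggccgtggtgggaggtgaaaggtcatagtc
SF3B14: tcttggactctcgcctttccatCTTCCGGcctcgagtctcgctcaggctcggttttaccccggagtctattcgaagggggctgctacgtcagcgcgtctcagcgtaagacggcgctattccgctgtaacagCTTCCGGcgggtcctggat

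The other 4 belong to genes with negative changes, among which SRSF8, whose change was larger than that of SRSF6, is not shown. PRPF38B lies at chr1:108692160-108692309 (plus), SRSF4 at chr1:29181901-29182050 (minus), SRSF3 at chr6:36594212-36594361 (plus) and SRSF6 at chr20:43457746-43457895 (plus).
PRPF38B: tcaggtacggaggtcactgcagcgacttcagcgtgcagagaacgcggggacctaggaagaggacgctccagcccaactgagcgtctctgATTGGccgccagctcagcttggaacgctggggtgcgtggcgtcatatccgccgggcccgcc
SRSF4: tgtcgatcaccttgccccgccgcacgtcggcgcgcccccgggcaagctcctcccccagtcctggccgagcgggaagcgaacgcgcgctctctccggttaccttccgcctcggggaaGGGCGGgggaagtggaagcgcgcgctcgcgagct
SRSF3: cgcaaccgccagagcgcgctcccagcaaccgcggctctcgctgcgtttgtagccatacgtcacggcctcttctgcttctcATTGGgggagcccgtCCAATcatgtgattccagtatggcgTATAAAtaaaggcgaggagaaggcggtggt
SRSF6: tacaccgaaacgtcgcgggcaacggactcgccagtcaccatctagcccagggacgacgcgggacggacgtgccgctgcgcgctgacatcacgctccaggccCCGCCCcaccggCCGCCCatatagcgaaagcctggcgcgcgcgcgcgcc

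The SRSF3 window held both a pair of CCAAT boxes and a TATA box 30 bases before the start, and the SNRPD2 window held an ETS match between 2 CCAAT boxes. Across the set, the ETS core was found in 18 of 59 promoters (30.5%), against 13.9% of 9560 listed genes and 7.18% of 27305 RefSeq promoters. CCAAT was found in 35.6% of the set, against 27.4% of listed genes and 24.4% of all promoters. The GC box was found in 47.5% of the set, against 61.7% of listed genes and 36.7% of all promoters. TATAAA was in 6.78% of the set, 2.88% of listed genes and 7.05% of all promoters, and the NRF1 motif in 11.9%, 9.40% and 4.72%. Among genes with a promoter entry, the ETS core was in 3 of the 12 whose change in CAL-62 was negative and in 15 of the 45 whose change was positive. A match is a description of letters in this window and shows no binding.

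Splicing factor genes were among the better expressed genes of both lines. Their median value over the libraries was 75.2, against 8.91 for all listed genes. On this per-length scale the HNRNP family had the highest median value, 142, followed by U2AF (97.03), SF3A/SF3B (78.8), SNRP (71.6), SRSF (59.4) and PRPF (23.0). SNRPB, the largest protein of the Sm ring, had the highest mean value over the 8 libraries at 485. HNRNPA1, which represses exon inclusion, followed at 360. In BCPAP DMSO the order was the other way, with means of 415 for HNRNPA1 and 317 for SNRPB. HNRNPK, which binds C-rich RNA, averaged 286. SF3B2 (197) and SF3A2 (116) led the SF3 subunits, U2AF2 (140) stood above U2AF1 (97.03), PRPF8 (143) and PRPF19 (139) led the PRPF genes, and SRSF9 (98.5) and SRSF2 (95.6) led the SR genes. SNRPB was above SNRPD2 and SF3B2 above SF3A2 in all 8 libraries, whereas the order of SRSF9 and SRSF2 differed between libraries. None of these orders was tested. The lowest values were those of SRSF10 (2.29) and PRPF40B (2.04) in BCPAP.

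The proteins of the Sm ring occur in the same number of copies per ring, yet their transcripts spanned a wide range of levels per length. Below SNRPB came SNRPD2 (199), SNRPF (95.5), SNRPD3 (74.7), SNRPG (63.3), SNRPD1 (42.6) and SNRPE (36.9), all chosen for mention after their values were seen. Values of SNRPG, SNRPC, HNRNPA3 and HNRNPA1 are uncertain because near-identical copies exist: GENCODE release 29 names 20, 18, 16 and 74 pseudogenes after them. In all, 26 of the 66 genes have at least 1 such pseudogene, and how the authors counted reads that match several places is not given in the sources used here. HNRNPA1P10, HNRNPA1L2 and HNRNPCL1 are themselves near copies of other HNRNP genes, so reads could have been divided among them.

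In CAL-62 no gene of the set passed the test after THZ1. All 11 SNRP genes and all 9 SF3A and SF3B genes had positive changes on the deposited scale, as did 19 of 20 HNRNP genes, as did 4 of 10 SRSF genes and 52.3% of all genes. The median change, THZ1 minus DMSO in log2(value + 1), was 0.76 for SNRP, 0.46 for HNRNP, 0.45 for SF3A/SF3B, 0.44 for U2AF, 0.34 for PRPF and -0.08 for SRSF. The median was 0.44 over the 64 genes and 0.04 over all 11240 genes tested. These directions depend on the scaling: with the 76 ribosomal protein genes as reference, 1 of the 64 changes was positive, and with scaling by the sum of reads 35 were. The median of all genes moved with it, to -0.78 under the ribosomal reference and -0.32 under the sum of reads. A scaling shifts all genes nearly alike, so the place of a gene relative to that median hardly depends on it: 11 of 11 SNRP, 19 of 20 HNRNP, 8 of 9 SF3A/SF3B, 6 of 11 PRPF and 4 of 10 SRSF genes lay above it. In bulk RNA, fewer cells of a kind and less RNA per cell cannot be told apart, and these values show relative amounts only.

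By limma with Benjamini-Hochberg adjustment over all genes tested, 0 of the 64 genes were called at an adjusted p under 0.05, where 4.65% of all genes were called (0.596% higher and 4.06% lower). At an unadjusted p under 0.05 there were 28 of 64 (23 with positive and 5 with negative changes), or 43.8%, against 29.9% of all genes. limma-voom on the recovered reads called 0 of them as well. The smallest adjusted p in the set was 0.0576, for SNRPF. In the fit that shares the spread over both lines, the count was 6 without BCPAP THZ1 replicate 1, 6 without BCPAP THZ1 replicate 2 and 1 without CAL-62 THZ1 replicate 2, where 7.23%, 7.30% and 4.07% of all genes were called. Across all genes the calls split into 67 higher and 456 lower on the deposited scale, 10 higher and 1469 lower by the sum of reads, and 4 higher and 3355 lower by the ribosomal reference.

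**Figure D1:**
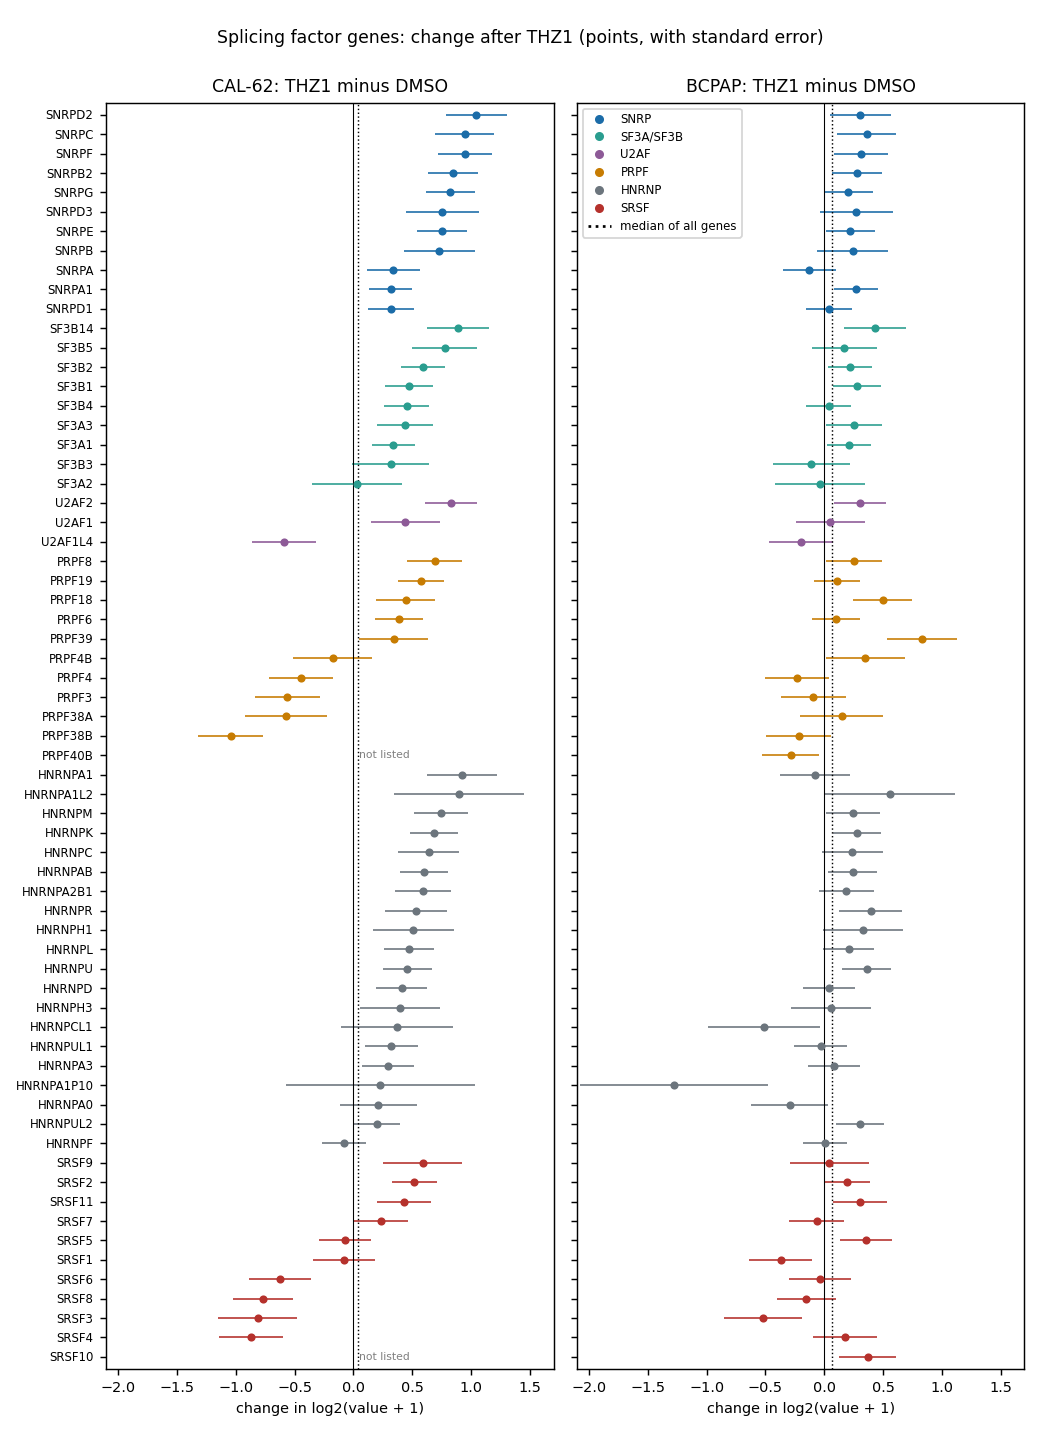
Change after THZ1 (THZ1 minus DMSO in log2(value + 1), horizontal axis) of the splicing factor genes, 1 left out, in CAL-62 on the left and BCPAP on the right. Points are the limma estimate from 2 libraries per group, bars its standard error, colours the families and the dotted line the median of all genes tested; in CAL-62 the 11 SNRP genes lie to the right of it and 6 of 10 SRSF genes to the left.

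Among the snRNP proteins, the Sm ring gene SNRPD2 showed the largest positive change. Its values were 261 and 209 in the CAL-62 THZ1 libraries, against 129 and 98.7 in the CAL-62 DMSO libraries. Both THZ1 libraries were above both DMSO libraries, with a change of 1.04 (SE 0.26, 2.06-fold on the shifted scale, limma adjusted p = 0.0593). SNRPF, its neighbour in the ring, had 159 and 165 with THZ1, against 83.8 and 83.2 with DMSO. The replicates of SNRPF lay close together and the groups did not overlap, with a change of 0.95 (SE 0.23, limma adjusted p = 0.0576). SNRPC, a U1 protein that helps to hold the 5′ splice site, had 262 and 190 with THZ1, against 136 and 98.0 with DMSO. These groups did not overlap either, and the change was 0.95 (SE 0.25, limma adjusted p = 0.0669). Under the ribosomal reference SNRPD2 stayed positive at 0.08, while SNRPF and SNRPC became -0.02 each.

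The groups did not overlap in any of the 11 SNRP genes of CAL-62, each being higher with THZ1. In the set as a whole, 39 of 64 were higher and 8 lower without overlap, where 30.4% of all genes were higher and 26.8% lower in that way. At mean values of 100 and over, 21 of 26 genes of the set were higher, against 83.6% of other genes. The smallest SNRP changes were 0.32, in SNRPD1 of the Sm ring and SNRPA1 of the U2 snRNP. The SNRP genes took 0.188% and 0.213% of reads in listed genes in the CAL-62 THZ1 libraries, against 0.156% and 0.164% in the DMSO libraries. In BCPAP their shares overlapped, at 0.114% and 0.141% with THZ1, against 0.119% and 0.127% with DMSO. The shares of the whole set overlapped in CAL-62, at 1.77% and 1.83% with THZ1, against 1.82% and 1.67% with DMSO. Those of HNRNP, SF3A/SF3B and PRPF overlapped there too, but not those of U2AF.

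SF3B14 encodes the small SF3B protein that sits at the branch point adenosine. It had 205 and 151 in the CAL-62 THZ1 libraries, against 112 and 79.8 in the DMSO libraries. The groups did not overlap, and the change was 0.89 (SE 0.26, limma adjusted p = 0.0796), or -0.08 under the ribosomal reference. The 9 SF3A and SF3B genes ranged from 0.03 to 0.89, and 7 of them were higher without overlap, where 30.4% of all genes were.

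HNRNPA1 had 391 and 433 in the CAL-62 THZ1 libraries, against 261 and 179 in the DMSO libraries. Both THZ1 libraries were above both DMSO libraries, with a change of 0.92 (SE 0.30, limma adjusted p = 0.0934) that turned to -0.04 under the ribosomal reference. Its close relative HNRNPA1L2 had 56.1 and 26.6 with THZ1, against 35.5 and 11.4 with DMSO, groups that overlapped (change 0.90, SE 0.55, limma adjusted p = 0.307; -0.04 under the ribosomal reference). Single libraries decided this change, which was 0.12 without CAL-62 DMSO replicate 2, 1.68 without DMSO replicate 1, 0.37 without THZ1 replicate 1 and 1.42 without THZ1 replicate 2. Of the 20 HNRNP genes, 12 were higher without overlap and none lower, where 30.4% and 26.8% of all genes were.

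The negative changes were gathered in the SRSF and PRPF families. PRPF38B, a relative of the spliceosome protein PRPF38A, had 10.98 and 11.3 in the CAL-62 THZ1 libraries, against 23.5 and 24.5 in the DMSO libraries. The replicates nearly coincided within each group, and the change was -1.04 (SE 0.28, limma adjusted p = 0.0669). PRPF38A, which joins the spliceosome before its activation, had 13.1 and 6.79 with THZ1, against 18.0 and 11.8 with DMSO, groups that overlapped (change -0.57, SE 0.35, limma adjusted p = 0.306). Its change was -0.14 without CAL-62 THZ1 replicate 2, -0.9998 without THZ1 replicate 1, -0.29 without DMSO replicate 1 and -0.86 without DMSO replicate 2. Of 11 PRPF genes, 5 were higher and 3 lower without overlap, where 30.4% and 26.8% of all genes were.

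SRSF4, an SR protein with a long arginine-serine tail, had 23.8 and 14.5 in the CAL-62 THZ1 libraries, against 41.3 and 29.4 in the DMSO libraries. Every THZ1 value was below every DMSO value, with a change of -0.87 (SE 0.27, limma adjusted p = 0.0878). SRSF3, the smallest of the classical SR proteins, had 36.3 and 80.7 with THZ1, against 94.0 and 98.1 with DMSO. The THZ1 libraries of SRSF3 disagreed, replicate 1 being far lower, and the change was -0.81 (SE 0.33, limma adjusted p = 0.153). Without CAL-62 THZ1 replicate 2 it was -1.38 (limma adjusted p = 0.0341), and without replicate 1 it was -0.25.

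SRSF6, which is related to SRSF4, had 43.8 and 31.3 in the CAL-62 THZ1 libraries, against 64.1 and 51.7 in the DMSO libraries, with a change of -0.62 (SE 0.27, limma adjusted p = 0.163). SRSF8 had 2.99 and 4.88 with THZ1, against 7.07 and 7.42 with DMSO, with a change of -0.77 (SE 0.25, limma adjusted p = 0.0965). Neither gene's groups overlapped. Of the 10 SRSF genes, 3 were higher and 4 lower without overlap, where 30.4% and 26.8% of all genes were. The family's changes reached 0.59. With scaling by the sum of reads, 4 genes of the set were called in CAL-62, all lower, where 13.1% of all genes were called: PRPF38B, SRSF4, SRSF6 and SRSF8. With the ribosomal reference 12 were called, all lower, where 29.4% of all genes were called. SRSF genes took 0.130% and 0.161% of reads in the CAL-62 THZ1 libraries, against 0.216% and 0.196% in the DMSO libraries. In BCPAP they took 0.179% and 0.166% with THZ1, against 0.206% and 0.195% with DMSO, so in each line both THZ1 libraries were below both DMSO libraries by share of reads. The summed RPKM-type values of the SRSF genes overlapped instead, at 570 and 640 with THZ1, against 608 and 573 with DMSO in CAL-62, and at 627 and 663 with THZ1, against 634 and 621 with DMSO in BCPAP.

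**Figure D2:**
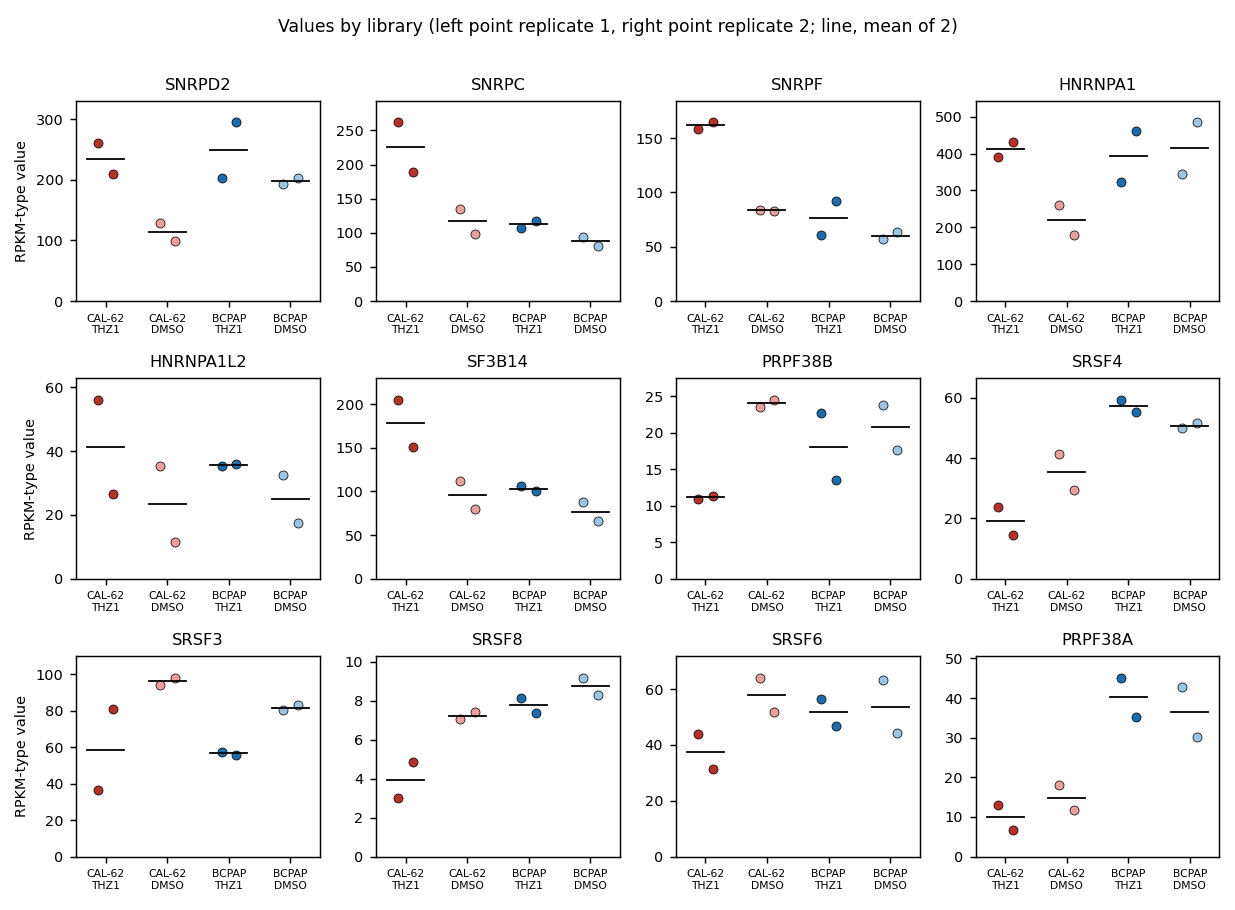
RPKM-type values (vertical axes, each from 0) in all 8 libraries for 12 splicing factor genes. They had the largest changes in CAL-62, 6 in each direction, among those with a mean value of at least 5 there. The left point of a pair is replicate 1, the right one replicate 2, and the line their mean; the CAL-62 groups are apart in 10 of the 12 panels and overlap in HNRNPA1L2 and PRPF38A.

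The positive changes of the set went with its level of expression. In CAL-62 the change of genes outside the set was larger at higher levels: their median was -0.28 at mean values of 1 to 5, -0.05 at 5 to 20, 0.32 at 20 to 50, 0.61 at 50 to 100 and 0.82 at 100 and over. Splicing factor genes in the same ranges had medians of -0.59 (1 gene), -0.18 (8 genes), 0.33 (12 genes), 0.38 (17 genes) and 0.59 (26 genes). In the highest range 6 of 26 lay above the median of the other genes, and in the range below it 4 of 17 did. At mean values of 100 and over, 21 of 26 splicing factor genes and 83.6% of other genes were higher with THZ1 without overlap. At 50 to 100, 10 of 17 and 72.1% were. The level is the mean over the 4 libraries of the line and so shares its data with the change. Whether level accounts for the set's changes was not tested.

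Gene length moved with the change too. In CAL-62 the median change of other genes was 0.44 under 1000 bases, 0.25 at 1000 to 2000, -0.01 at 2000 to 4000 and -0.06 at 4000 and over. The set had 0.85, 0.45, 0.43 and 0.32 in these ranges, above the other genes in each. SNRP genes are short, with a median length of 1217 bases, against 2911 over all listed genes. Over the 64 genes Spearman's correlation of the change was 0.59 with level and -0.36 with length, and over all genes tested it was 0.52 and -0.20. Genes share libraries and depth, so these are descriptions.

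**Figure D3:**
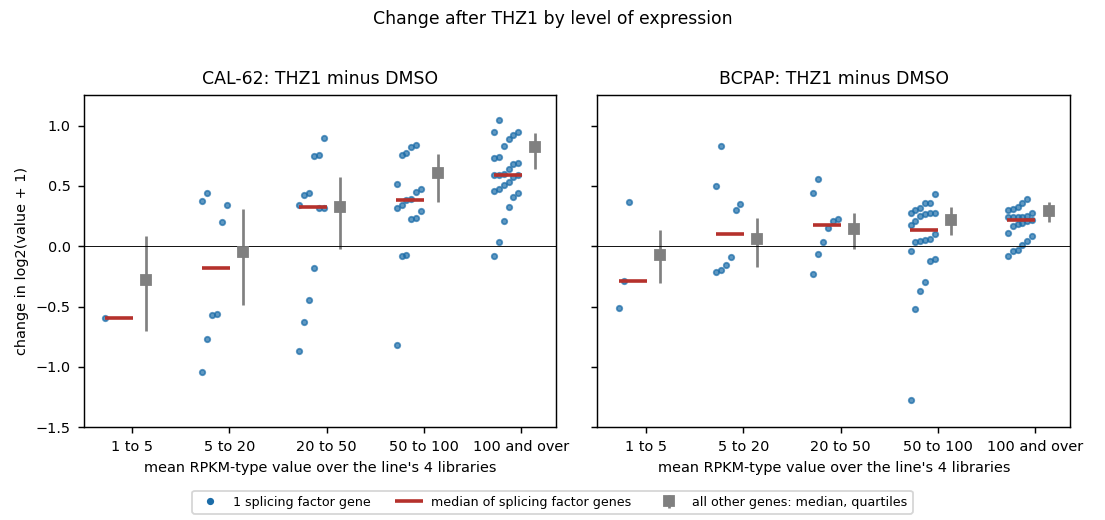
Change after THZ1 (vertical axis, log2(value + 1)) by mean RPKM-type value over the 4 libraries of the line (horizontal axis, 5 ranges), CAL-62 on the left and BCPAP on the right. Blue points are splicing factor genes, red bars their medians, grey squares the medians of all other genes with their quartiles; in CAL-62 at 100 and over the red bar is at 0.59 and the grey square at 0.82.

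In BCPAP no gene of the set passed the test after THZ1. By limma, 0 of 66 genes were called, where 0% of the 11716 genes tested were, and limma-voom also called 0. At an unadjusted p under 0.05 there was 1 gene, PRPF39, against 3.97% of all genes. The median change was 0.20 for the set, with 48 positive, and 0.07 over all genes, and with the ribosomal reference 25 were positive and the median of all genes was -0.14. The set's median relative to all genes, 0.13, was 0.0507 without BCPAP THZ1 replicate 2 and 0.0836 with a minimum mean of 5. In 25 genes the THZ1 libraries were higher without overlap and in 5 lower, against 21.9% and 16.3% of all genes. The family medians were 0.27 for SNRP, 0.21 for SF3A/SF3B, 0.20 for HNRNP, 0.13 for PRPF, 0.05 for U2AF and 0.04 for SRSF. At mean values of 100 and over, the set's median was 0.22 and that of other genes 0.29.

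PRPF39, whose yeast counterpart belongs to the U1 snRNP, had the largest positive change in BCPAP. Its values were 14.2 and 14.0 in the THZ1 libraries, against 7.43 and 7.55 in the DMSO libraries. The groups were far apart relative to their replicates, with a change of 0.83 (SE 0.29, limma adjusted p = 0.935). In CAL-62 the same gene had 11.3 and 5.82 with THZ1, against 6.51 and 5.93 with DMSO, where the high value was replicate 1 alone. PRPF18, a factor of the second catalytic step, had 17.9 and 14.1 in BCPAP with THZ1, against 12.1 and 9.97 with DMSO, without overlap (change 0.50, SE 0.25). SF3B14 had 106 and 99.9 in BCPAP with THZ1, against 87.9 and 65.7 with DMSO, again without overlap (change 0.43, SE 0.26). HNRNPA1L2 and HNRNPR had changes of 0.56 and 0.39.

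On the negative side in BCPAP, SRSF3 had 57.3 and 55.7 in the THZ1 libraries, against 80.1 and 83.1 in the DMSO libraries. Replicates nearly coincided and the groups did not overlap, yet the change of -0.52 (SE 0.33) had a limma adjusted p of 0.935. That limma adjusted p was also the smallest of any gene tested in BCPAP. The SE comes from a fit that shares its spread with CAL-62, where the THZ1 replicates of this gene disagreed. SRSF1, a founding SR protein, had 54.8 and 47.5 with THZ1, against 72.5 and 60.6 with DMSO, also without overlap (change -0.37, SE 0.27). HNRNPA1P10 had 9.27 and 84.2 with THZ1, against 65.9 and 75.8 with DMSO. That change of -1.28 (SE 0.80) rested on BCPAP THZ1 replicate 1, and without this library it was 0.25. HNRNPA0, PRPF4 and PRPF38B followed at -0.29, -0.23 and -0.22, with groups that overlapped. Each turned positive without 1 library: HNRNPA0 was 0.07 without BCPAP THZ1 replicate 1, and PRPF4 and PRPF38B were 0.06 and 0.14 without BCPAP THZ1 replicate 2.

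The responses of the lines were compared gene by gene in the same fit. Of the 64 genes, 42 had positive changes in both lines, 8 negative in both, 9 positive in CAL-62 alone and 5 negative in CAL-62 with a positive change in BCPAP. By limma, 0 of 64 differences were called, where 0% of 10478 genes were, and limma-voom called 0. At an unadjusted p under 0.05 there were 2 genes, HNRNPA1 and SRSF4, and 549 of all genes. The median difference, CAL-62 minus BCPAP, was 0.33 for the set and -0.00343 for all genes, or -0.39 and -0.64 under the ribosomal reference. SNRPD2 differed by 0.74 (SE 0.37), SNRPF by 0.63 (SE 0.33) and SNRPG by 0.62 (SE 0.30). SF3B5, a small SF3B subunit, differed by 0.60 (SE 0.39). With the ribosomal reference SNRPF, SNRPG and SF3B5 turned to -0.09, -0.11 and -0.12.

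HNRNPA1 had 324 and 462 in the BCPAP THZ1 libraries, against 345 and 486 in the BCPAP DMSO libraries, so its groups overlapped there, unlike in CAL-62. The difference of the responses was 1.00 (SE 0.42, limma adjusted p = 0.846). HNRNPA1P10 had a larger difference of 1.51 (SE 1.13), which was -0.02 without BCPAP THZ1 replicate 1. SRSF4 had a difference of the opposite sign: in BCPAP it had 59.4 and 55.4 with THZ1, against 49.9 and 51.6 with DMSO, without overlap and with THZ1 above DMSO, a change of 0.17 (SE 0.27). In CPM, which scales by the reads in listed genes, the BCPAP groups overlapped, at 147 and 128 with THZ1, against 135 and 142 with DMSO. The difference of the responses was -1.04 (SE 0.39, limma adjusted p = 0.846). PRPF38B, PRPF38A, SRSF8, SRSF6 and PRPF4B, a kinase found with the tri-snRNP, had differences of -0.83, -0.72, -0.62, -0.59 and -0.53. A p above the threshold does not show that the lines responded alike, and the standard errors of these 5 differences were 0.36 to 0.50.

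The lines were also compared between vehicle-treated cells. By limma, 5 of 64 genes were called in CAL-62 against BCPAP (1 higher and 4 lower), where 14.0% of all genes were called (6.30% higher and 7.71% lower). SF3A3, a subunit of SF3A, had 45.2 and 35.6 in CAL-62 DMSO, against 93.1 and 71.0 in BCPAP DMSO. It was lower in both CAL-62 libraries (change -1.001, SE 0.24, limma adjusted p = 0.0321). HNRNPA3, a relative of HNRNPA1, had 73.6 and 54.1 in CAL-62, against 116 and 111 in BCPAP (change -0.84, SE 0.22, limma adjusted p = 0.0428). SF3B1, which clamps the branch site, had 50.4 and 43.1 in CAL-62, against 80.2 and 80.2 in BCPAP (change -0.77, SE 0.21, limma adjusted p = 0.0460). In none of these did the lines overlap. PRPF6, which bridges U5 and U4/U6, had 58.0 and 52.1 in CAL-62, against 88.9 and 98.6 in BCPAP (change -0.76, SE 0.20, limma adjusted p = 0.0468). SNRPG, of the Sm ring, was higher, with 63.6 and 61.7 in CAL-62 DMSO, against 35.8 and 36.7 in BCPAP DMSO (change 0.77, SE 0.21, limma adjusted p = 0.0481).

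These calls between the lines were all lost when any 1 DMSO library was left out, and some were lost without either BCPAP THZ1 library. Such fits leave a group with 1 library, and whether the loss was particular to these genes was not tested. With the ribosomal reference the 4 lower genes lost their calls with adjusted p-values of 0.372 to 0.561, SNRPG was called at 1.23, and the 4 calls of the set were all higher. All genes split into 660 higher and 808 lower on the deposited scale, 983 and 706 by the sum of reads and 1116 and 266 by the ribosomal reference. Whether the tables of the lines were normalised together is not given in the sources used here. Set beside size factors computed jointly over both lines by the median of ratios, the scaling of the libraries differed by at most 4.73%.

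**Figure D4:**
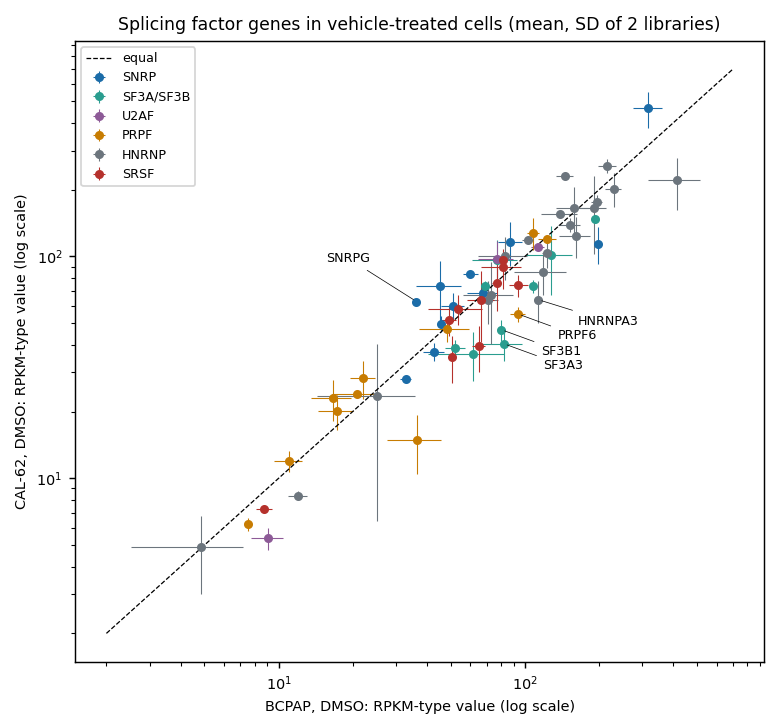
Mean RPKM-type value of each splicing factor gene in vehicle-treated cells, CAL-62 on the vertical and BCPAP on the horizontal axis, both on log scales, with the SD of 2 libraries as bars and the dashed line where the lines are equal. The 5 genes called between the lines are named; SNRPG lies above the line and HNRNPA3, PRPF6, SF3B1 and SF3A3 below it.

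Of the genes not called, HNRNPAB, an RNA-binding protein of the hnRNP type, had 234 and 226 in CAL-62 DMSO, against 153 and 137 in BCPAP DMSO (change 0.67, SE 0.21, limma adjusted p = 0.0688). SNRPD3 and SNRPB of the Sm ring were at 0.66 and 0.55, SNRPF at 0.47 and PRPF4B at 0.44, all without overlap. PRPF38A had the largest difference of the set, 18.0 and 11.8 in CAL-62, against 42.8 and 30.2 in BCPAP (change -1.25, SE 0.35, limma adjusted p = 0.0528). HNRNPA1 had a change of -0.92 (SE 0.30, limma adjusted p = 0.0799). Over the set, 14 genes were higher and 24 lower in CAL-62 without overlap, where 33.5% and 33.0% of all genes were. By family, 6 of 11 SNRP genes were higher and 6 of 9 SF3A/SF3B genes lower in this way. The median of the SF3A/SF3B family was -0.42 on the deposited scale and 0.04 under the ribosomal reference, where the median of all genes was 0.42.

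Splicing genes outside the symbol rule were read from the same fits. In CAL-62, 0 of 32 other snRNP proteins, 0 of 32 PRPF19 complex and catalytic-step factors and 0 of 11 exon junction genes were called. Their medians were 0.27, 0.28 and 0.40. Of all genes tested, 4.65% were called (0.596% higher and 4.06% lower). Of 21 SR-related genes and SR protein kinases, 1 was called, with a median of 0.09: SRRT, which links the cap-binding complex to RNA processing, had 174 and 145 with THZ1, against 77.2 and 59.1 with DMSO. It rose by 1.22 (SE 0.23, limma adjusted p = 0.0322), and by 0.26 without a call under the ribosomal reference. The median over 41 other RNA-binding regulators was 0.39.

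The SMN complex, which loads Sm proteins onto snRNAs, held the called genes on the lower side in CAL-62. Among 21 Sm-like and SMN complex genes, with a median of 0.20, 3 were called, all lower, where 4.06% of all genes were called lower. Of genes outside the symbol rule, 42.9% at mean values of 1 to 5 and 29.5% at 5 to 20 were lower without overlap. The part of level in these calls was not tested. GEMIN4 had 11.2 and 10.3 with THZ1, against 35.0 and 23.4 with DMSO (change -1.34, SE 0.23, limma adjusted p = 0.0275). The helicase DDX20, also known as GEMIN3, had 2.39 and 0.777 with THZ1, against 7.89 and 8.84 with DMSO (change -1.93, SE 0.38, limma adjusted p = 0.0372). GEMIN7 had 2.31 and 5.29 with THZ1, against 11.3 and 13.3 with DMSO (change -1.54, SE 0.32, limma adjusted p = 0.0425). All 3 stayed called and lower under the sum of reads and the ribosomal reference. SRRT and these 3 genes were not called in the fit on the 4 CAL-62 libraries alone, where 0 of 11240 genes were. Nor were they called when any single DMSO library of either line was left out, where calls over all genes also fell. The limma adjusted p was 0.0842 to 0.0921 over these 4 genes from the CAL-62 libraries alone, and 0.0560 to 0.244 without 1 DMSO library. Without CAL-62 THZ1 replicate 1, DDX20 alone of the 4 kept its call, and without replicate 2, GEMIN7 alone did. With a minimum mean of 5, GEMIN7 was not called (limma adjusted p = 0.0622), and limma-voom called all 4. In BCPAP no gene of these lists was called, where 0% of the 11716 genes tested were. In the snRNP, SMN, PRPF19 complex, exon junction, SR-related and RNA-binding lists the BCPAP medians were 0.11, 0.05, 0.16, 0.15, 0.26 and 0.21.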

How the data were processed

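The tables the authors deposited, 1 for each line, hold genes by library as RPKM-type values, which the values themselves show to be reads divided by gene length and library scale. Bowtie2, DESeq2 and hg19 appear in the submitters' processing notes, while annotation and strand setting were not given in the sources used here. In each line's table the lowest mean over the DMSO libraries was just above 1, so genes below that level, including any that only THZ1 raised, are outside it. Whole reads and gene lengths were recovered within 0.02 reads for 12713 of 12715 genes. limma 3.58.1 (R 4.3.3) with a mean-variance trend was fitted to log2(value + 1), which understates changes of low genes, over all genes with a mean of at least 1 in a line. The model had 4 group means and 1 spread for all 8 libraries. A gene absent from the other table used the 4 libraries of its own line. P-values are two-sided, adjusted by Benjamini-Hochberg over all genes tested, with calls under 0.05. The fit was tested on simulated data.

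The genes of the set, the other splicing lists, the motifs and the tests were chosen with earlier results of these data known. Named in each comparison were called genes (at most 12 in a direction by adjusted p) and then the largest changes at a mean value of at least 5, until 6 in each direction were named. The 2 highest genes of each family were named for their levels, and in other lists at most 2 called genes. Results for a few genes that this rule names are not reported here. GEMIN7 and the genes of the Sm ring were added after their values were seen. Alternatives were other pseudocounts and filters, 3 other scalings, the replicate number as a block, the line's own libraries only, limma-voom on recovered reads and leaving out each library.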

Additional observations from a re-analysis of the deposited data

Results flagged for a closer look

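On the deposited scale, SRSF4 had changes of opposite sign in the lines. Both CAL-62 THZ1 libraries were below both CAL-62 DMSO libraries, and both BCPAP THZ1 libraries were above both BCPAP DMSO libraries. The change in BCPAP was 0.17 (SE 0.27), and in CPM the BCPAP groups overlapped, at 147 and 128 with THZ1, against 135 and 142 with DMSO. The difference of the responses, CAL-62 minus BCPAP, was -1.04 in log2(value + 1) (SE 0.39), with an unadjusted limma p of 0.0272 and an adjusted p of 0.846, so it did not pass the correction over 10478 genes.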

How the results depend on the processing

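For CAL-62 treated with THZ1, the number of splicing factor genes called was 0 on the deposited scale, 1 with median-of-ratios size factors, 4 with the sum of reads and 12 with ribosomal protein genes as reference, where 4.65%, 5.35%, 13.1% and 29.4% of all genes were called; leaving out 1 library gave 0 to 6. The cause was not tested. The median change of the set relative to all genes, 0.40, was 0.23 with a minimum mean of 5, 0.34 with the sum of reads and 0.28 with the ribosomal reference, and 0.29 to 0.49 without 1 library. For the difference of the responses this median, 0.33, was 0.24 with a minimum mean of 5 and 0.25 with the ribosomal reference, and 0.21 to 0.40 without 1 library. For the lines under DMSO, 5 genes were called, where 14.0% of all genes were, and 2 with a minimum mean of 5. Leaving out any 1 DMSO library lost all 5 calls. In BCPAP the relative median, 0.13, was 0.0507 to 0.160 without 1 library. In BCPAP and for the difference of the responses, the count stayed at 0 under all alternatives run.

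Replicate numbers are shared, but the labels do not say what they mark. Deviations of same-numbered libraries from their group means correlated at 0.47 in CAL-62 and 0.78 in BCPAP over all genes tested. Over the genes of the set they correlated at 0.71 in CAL-62 and 0.64 in BCPAP. With the replicate number as a block, 42 genes of the set (34 higher and 8 lower) were called in CAL-62, where 4493 of 11240 genes were, and 20 (5 higher and 15 lower) between the lines, where 40.4% were. In BCPAP and for the difference of the responses it called 0. At an unadjusted p under 0.05, limma with the block gave 51 genes of the set in CAL-62, 10 in BCPAP and 19 for the difference, against 28, 1 and 2 without it.

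Under the ribosomal reference, 8 named changes turned: in CAL-62 SNRPC (-0.0182), SNRPF (-0.0171), HNRNPA1 (-0.0447), HNRNPA1L2 (-0.0351) and SF3B14 (-0.0773), and in the difference of the responses SNRPF (-0.0936), SNRPG (-0.106) and SF3B5 (-0.117). Leaving out 1 library turned 4 changes in BCPAP, whose ranges over such removals were -2.80 to 0.25 for HNRNPA1P10, -0.659 to 0.0742 for HNRNPA0, -0.522 to 0.0596 for PRPF4 and -0.573 to 0.139 for PRPF38B. In the difference of the responses, HNRNPA1P10 ranged over -0.0211 to 3.03. Leaving out a library leaves a group with 1, assumed to vary like the others.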
